A study of Homo sapiens with 16 samples.

Results

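DUSP4, DUSP5, DUSP6, SPRY1, SPRY2, SPRY4, SPRED1, SPRED2, ETV4 and ETV5 are genes that ERK signalling switches on and whose products, in most cases, act back on it. They were taken by gene symbol from the tables of both cell lines, and all 10 were found, of 20851 genes listed in either table. All 10 were tested in both lines, and the lowest of them in any library still had 187 reads.

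RNA was sequenced from PC9, a line from lung cancer, and MDA231, a line from breast cancer, with 8 libraries each. In each line, 2 libraries came from parental cells without a hairpin. The other libraries came from LeptoM cells, a derivative of the same line that metastasises to the leptomeninges, grown in dishes like the parental cells. LeptoM cells carried a control hairpin (shCTL) or a hairpin against LCN2 (shLCN2_1 or shLCN2_2), with 2 libraries per hairpin. The target, lipocalin-2, is a secreted protein that captures iron bound to siderophores. Comparing shCTL with parental cells asks how the LeptoM derivative differs, although those groups also differ in carrying a hairpin. Comparing each LCN2 hairpin with shCTL asks what changes when LCN2 is lowered. Both hairpin comparisons share the shCTL libraries, and both lines are cultured models with 1 LeptoM derivative each.

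The RAS, RAF, MEK and ERK cascade carries growth factor signals from receptors to the nucleus. Active ERK raises the transcription of genes whose products then limit the cascade, so their RNA is often used as a readout of ERK output. DUSP proteins of this group are phosphatases that remove phosphate from ERK and related kinases, Sprouty (SPRY) and SPRED proteins act higher up at RAS and RAF, and ETV4 and ETV5 are ETS-family transcription factors.

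Promoter sequences are shown for the 4 genes that rose together in MDA231 LeptoM cells and for which a promoter was in the table used. RefSeq promoter windows (GRCh38.p14) matched 6 of the 10 genes by symbol, namely DUSP6, SPRY1, SPRY2, SPRY4, SPRED1 and SPRED2. The 250 bases before the outermost start site were read, 5′ to 3′ on the strand of the gene. The windows are chr12:89352502-89352751 on the minus strand for DUSP6, chr15:38252586-38252835 on the plus strand for SPRED1, chr4:123396545-123396794 on the plus strand for SPRY1 and chr13:80341127-80341376 on the minus strand for SPRY2. Capitals mark the ETS-type motif CCGGAA.
DUSP6: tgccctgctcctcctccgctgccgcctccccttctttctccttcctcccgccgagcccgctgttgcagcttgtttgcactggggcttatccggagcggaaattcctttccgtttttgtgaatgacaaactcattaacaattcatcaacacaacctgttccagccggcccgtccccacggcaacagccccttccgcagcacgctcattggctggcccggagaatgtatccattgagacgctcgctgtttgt
SPRED1: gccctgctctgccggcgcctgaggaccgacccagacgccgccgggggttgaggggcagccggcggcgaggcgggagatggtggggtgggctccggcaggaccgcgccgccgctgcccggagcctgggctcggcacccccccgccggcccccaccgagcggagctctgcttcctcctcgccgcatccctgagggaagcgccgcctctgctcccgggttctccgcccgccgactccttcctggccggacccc
SPRY1: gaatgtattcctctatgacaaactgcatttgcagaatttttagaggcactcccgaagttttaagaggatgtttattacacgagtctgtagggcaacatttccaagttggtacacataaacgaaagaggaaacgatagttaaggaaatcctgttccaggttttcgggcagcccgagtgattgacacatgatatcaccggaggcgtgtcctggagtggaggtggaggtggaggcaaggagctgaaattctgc
SPRY2: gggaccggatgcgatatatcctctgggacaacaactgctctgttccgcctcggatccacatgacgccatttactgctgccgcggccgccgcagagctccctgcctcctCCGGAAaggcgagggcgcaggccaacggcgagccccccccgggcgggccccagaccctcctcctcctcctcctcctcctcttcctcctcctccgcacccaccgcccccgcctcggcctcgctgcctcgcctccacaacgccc
The motif CCGGAA, searched on both strands, lay 142 bases before the start in SPRY2 and was not in the other 5 outermost windows. Another of the SPRY1 windows held it, 67 bases before that start, so 2 of all 10 windows of these genes held it, against 14.5% of all 35116 windows of this length. Neither the AP-1 motif TGANTCA, held by 6.57% of all windows, nor the CRE motif TGACGTCA, held by 1.65%, was in any of the 10 windows. The SPRED1 and SPRY2 windows were rich in G and C, with 78.4% and 70.4%, against 57.2% for DUSP6, 45.6% for SPRY1 and a median of 58% over all windows. These windows differ in their letters although the 4 genes rose together in 1 of the lines, as given below.

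Values are normalised read counts, that is, gene reads divided by a size factor of the library, and were comparable within a line only. PC9 libraries held 36796098 to 51759154 gene reads and MDA231 LeptoM libraries 41751486 to 49050069, while the MDA231 parental libraries held 11592790 and 11613984. The depth of the MDA231 libraries therefore cannot be told apart from the parental group. LCN2 itself lay at 21140.4 and 23247.5 in PC9 parental libraries, 51004.3 and 49615.2 with shCTL, 3574.57 and 7046.44 with shLCN2_1 and 21415.4 and 18861.1 with shLCN2_2. In MDA231, LCN2 lay at 8.51 and 2.98 in parental libraries, where 3 reads are worth 8.51 and 8.94. It lay there at 19.3 and 13.7 with shCTL, 6.53 and 5.79 with shLCN2_1 and 4.31 and 4.93 with shLCN2_2, where 3 reads are worth 1.93 to 2.28. Both hairpin groups thus lay below shCTL with no overlap in either line. In MDA231, however, LCN2 was low in every library, at 19.3 or less. Its mean there was under the minimum of 10 used for testing, so its MDA231 change was not tested. Both PC9 shLCN2_1 libraries had low values for genes of high GC content (Spearman correlation across genes of -0.55 and -0.64, against -0.16 to 0.51 in the other PC9 libraries). MDA231 libraries were skewed as widely, at -0.29 and -0.60 in parental, 0.30 and -0.33 in shCTL, 0.21 and 0.60 in shLCN2_1 and 0.65 and 0.35 in shLCN2_2 libraries, so the shCTL replicates had opposite signs. Replicates of PC9 shLCN2_1 also stood apart from each other, with a median difference of 0.36 (log2) over the 10 genes, against 0.04 to 0.06 in the other PC9 groups. Reads aligned to several places numbered 42.4% of the gene reads of PC9 parental replicate 2 and between 18.1 and 20.6% of those of each other PC9 library. Without that replicate, fewer of the 10 genes were called for PC9 shCTL against parental, but the share of all genes called in that fit is not given here. The labels do not state whether replicates were grown separately, and the p-values therefore cover only library-to-library spread, possibly technical.

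Defining markers of the lines were mostly present. PC9 libraries held EPCAM at 11875.6 to 20746.5 and much KRT8 and KRT18, but NKX2-1, a transcription factor of lung epithelium, only at 0 to 8.39. MDA231 libraries held VIM at 174830 to 225347 and CDH1 at 0 to 7.15, as a mesenchymal-like line does. Other epithelial markers were present there, with KRT18 at 10400.5 to 14309.4, KRT8 at 2591.92 to 12152.9, KRT19 at 872.912 to 7742.86 and EPCAM at 232.564 to 370.795. Epithelial markers (5 of 7 found) summed in MDA231 to 14166.2 to 19274.4 in parental and 22781 to 34578.8 in LeptoM libraries. AXL, a receptor kinase, lay at 2474 and 2528 in PC9 parental and at 67.9 to 237 in PC9 LeptoM libraries. Of 7 leukocyte markers, 5 were in each table. Their summed level in PC9 was 825 to 911 in parental, 661 to 712 in shCTL, 307 to 458 in shLCN2_1 and 1309.8 to 1363 in shLCN2_2 libraries, mostly CSF1R, while PTPRC, which leukocytes carry, was at 7.79 to 47.2. In MDA231 that sum was 68.5 to 116 in parental and 129 to 218 in LeptoM libraries, with PTPRC at 0 to 8.36. Of 4 endothelial markers, 2 were in each table. Nearly all of their sum was CDH5 in PC9, with sums of 966 to 1029.9 in parental, 1029 to 1061 in shCTL, 315 to 518 in shLCN2_1 and 1469 to 1714 in shLCN2_2 libraries. In MDA231 it was KDR, with sums of 170.2 to 206 in parental and 469 to 725 in LeptoM libraries, while CDH5 was at 0 to 3.52. Fibroblast and meningeal markers (2 and 3 of 6 found) summed to 242 to 1005 in PC9 and 44.7 to 231 in MDA231, lowest in PC9 shLCN2_1 and MDA231 parental libraries. Neural and glial markers (2 of 5 found, mostly MBP) summed to 2572 to 3459 in PC9, highest with shLCN2_1, and in MDA231 to 2389 to 2589 in parental and 3848 to 4853 in LeptoM libraries. The part of these genes in the results below was not tested. In bulk RNA, fewer cells of a type and less RNA per cell cannot be told apart.

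**Figure D1:**
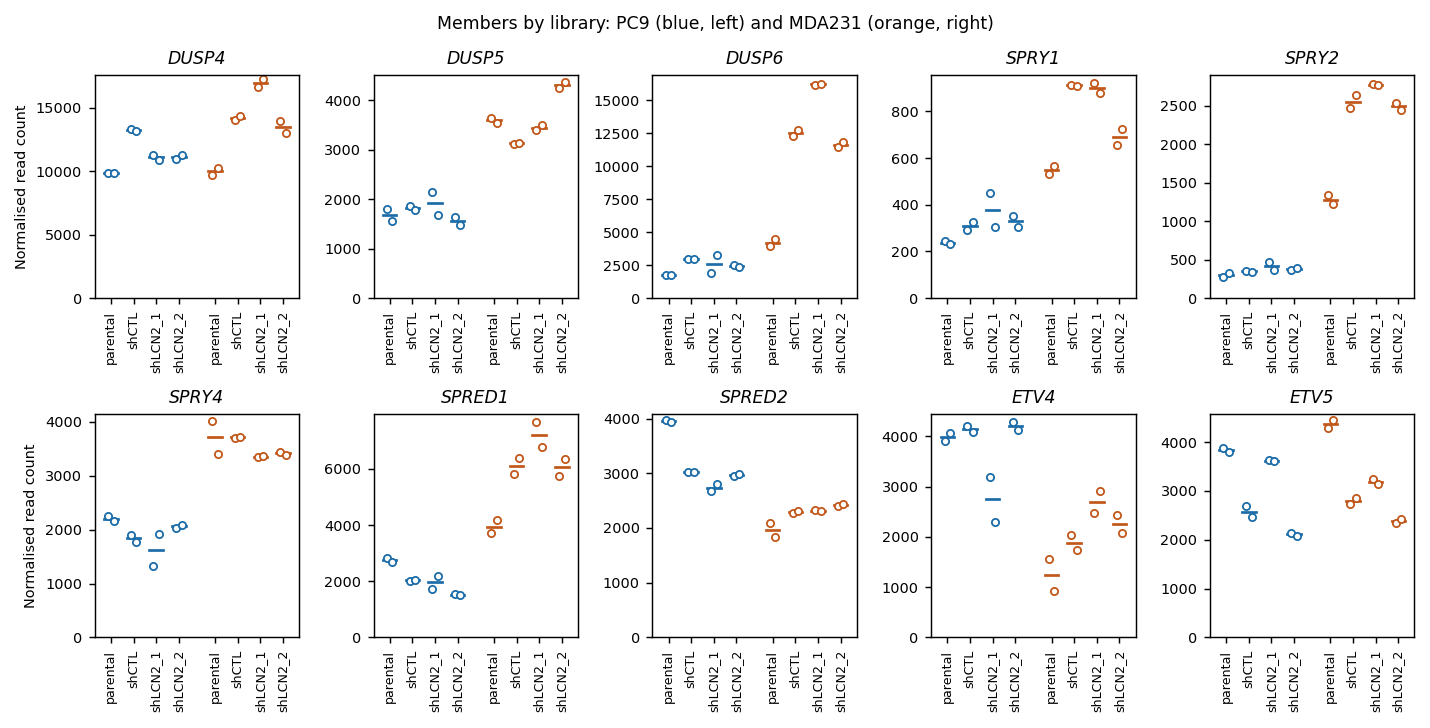
Normalised read count (y axis, linear, from 0) of each of the 10 genes in each of the 16 libraries. Points are libraries, short bars are group means of 2 libraries, PC9 is in blue on the left and MDA231 in orange on the right of each panel, and the lines were normalised separately. DUSP6 in MDA231 goes from about 4212 in parental cells to 12523 with shCTL, while ETV5 falls from parental to shCTL in both lines.

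Per kilobase of transcript, DUSP4 was the most abundant of the 10 in every PC9 group and SPRY1 the least. In PC9 parental cells the mean level per kilobase was 1358 for DUSP4, 1104 for ETV4, 768 for SPRED2, 661 for ETV5, 639 for DUSP5, 373 for DUSP6, 335.3 for SPRED1, 335.2 for SPRY4, 97.4 for SPRY2 and 59.96 for SPRY1. ETV5 and DUSP5 overlapped there between libraries, as did SPRED1 and SPRY4, and the other neighbours in this order did not overlap. The MDA231 order was led by DUSP4 and DUSP5 in parental cells, with overlapping libraries at means of 1377 and 1372 per kilobase. It was led by DUSP6 in the LeptoM groups, at 2704 with shCTL, 3498 with shLCN2_1 and 2513 with shLCN2_2. SPRY1 was the lowest in all MDA231 groups too, at 138 to 230.0 per kilobase. The sprouty genes thus spanned a wide range within a line, while each phosphatase was among the upper 6 in every group.

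In MDA231, LeptoM shCTL cells held more RNA of 5 of the 10 feedback genes than parental cells, led by DUSP6 at 2.98-fold, and less of ETV5. In PC9, 2 phosphatases rose, while SPRED1, SPRED2 and ETV5 fell. DUSP4 and DUSP6 thus rose and ETV5 fell in both lines, whereas SPRED1 moved in opposite directions. Counts stood near the background of these broad comparisons. In PC9, 5 of 10 genes were called at an adjusted p under 0.05, 2 higher and 3 lower, where 45.6% of 15650 tested genes were called, 23.8% higher and 21.8% lower. In MDA231, 6 of 10 were called, 5 higher and 1 lower, where 48.7% of 14387 tested genes were called, 24.8% higher and 23.8% lower. Libraries of the groups did not overlap for 9 of 10 genes in PC9 (78.2% of tested genes) and 9 of 10 in MDA231 (73.6%). The median change of the 10 was 0.57 in MDA231 and 0.09 in PC9, against 0.04 and 0.01 over all tested genes. Changes are differences of log2(normalised read count + 1), given with the standard error (SE) from limma.

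DUSP6 encodes a cytoplasmic phosphatase with a strong preference for ERK. Its normalised read count in MDA231 was 3968 and 4457 in parental libraries and 12282 and 12765 in shCTL libraries. These groups lay far apart, and the change was 1.57 ± 0.079 (adjusted p = 3.64e-05). In PC9, DUSP6 lay at 1739 and 1717 in parental and 2936 and 2951 in shCTL libraries, so the replicates agreed closely on each side. The PC9 change was 0.77 ± 0.21 (adjusted p = 0.0173), a 1.70-fold rise, with the shLCN2_1 libraries entering the shared estimate of spread. Fitted to these 2 groups alone, its SE was 0.060 and its adjusted p 8.04e-05. It passed the threshold no longer without parental replicate 1 or 2 or shCTL replicate 1 or 2, with an adjusted p of up to 0.0794.

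DUSP4, a nuclear phosphatase that acts on ERK and other MAP kinases, rose in both lines. PC9 libraries held 9881 and 9824 in parental and 13319.9 and 13141 in shCTL cells, a change of 0.43 ± 0.054 (adjusted p = 0.000473). MDA231 libraries held 9711 and 10275 in parental and 14029 and 14306 in shCTL cells, a change of 0.50 ± 0.072 (adjusted p = 0.00165). No parental library reached the shCTL level in either line, and the difference between the lines was -0.08 ± 0.090 (adjusted p = 0.495). DUSP5, a nuclear phosphatase specific for ERK, did not pass the test in either line. It lay at 1791 and 1552 against 1865 and 1776 in PC9 (0.13 ± 0.13, adjusted p = 0.448), where the groups overlapped. In MDA231 its values were 3644 and 3533 in parental and 3115 and 3138 in shCTL libraries (-0.20 ± 0.070, adjusted p = 0.0507), which did not overlap. With the trend against GC content removed, that MDA231 change was -0.53 (adjusted p = 0.0049), so its size depends on this step.

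Among the sprouty genes, which encode inhibitors of receptor signalling to RAS, SPRY2 and SPRY1 rose in MDA231 and did not pass the test in PC9. SPRY2 lay at 1339 and 1221 in MDA231 parental and 2467 and 2637 in shCTL libraries, a change of 1.00 ± 0.085 (adjusted p = 0.000237). SPRY1 lay at 530.4 and 566 against 913 and 910.3, a change of 0.73 ± 0.10 (adjusted p = 0.00136). Both groups were clearly separate for both genes. In PC9 the same genes were low, with SPRY2 at 269.9 and 322 in parental and 351 and 341 in shCTL libraries (0.23 ± 0.15, adjusted p = 0.242). PC9 SPRY1 lay at 245 and 230.2 against 292 and 326 (0.38 ± 0.19, adjusted p = 0.135). SPRY4 passed the test in neither line. Its PC9 values were 2248 and 2154 in parental and 1905 and 1774 in shCTL libraries (-0.26 ± 0.15, adjusted p = 0.197). Its MDA231 values were 4016 and 3408 against 3707 and 3723, which overlapped (0.01 ± 0.092, adjusted p = 0.962). SPRY4 has an antisense gene, and as the strand setting of the counting is not given in the sources used here, reads of both cannot be told apart.

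The SPRED genes encode membrane proteins that bring the RAS inactivator neurofibromin to RAS. SPRED1 moved in opposite directions in the lines. In PC9 it fell from 2843 and 2696 in parental to 2011 and 2044 in shCTL libraries, a change of -0.45 ± 0.11 (adjusted p = 0.0101). In MDA231 it rose from 3715 and 4165 to 5837 and 6381, a change of 0.63 ± 0.10 (adjusted p = 0.0029). No library of one group reached the other group in either line. The PC9 fall passed the threshold no longer without parental replicate 1 or either shCTL replicate (adjusted p up to 0.0655). SPRED2 fell in PC9, from 3980.0 and 3941 to 3022 and 3029, a change of -0.39 ± 0.060 (adjusted p = 0.00127). In MDA231 it lay at 2093 and 1826 in parental and 2272 and 2311 in shCTL libraries (0.23 ± 0.089, adjusted p = 0.0684).

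ETV5 was the only one of the 10 that fell in both lines. Its PC9 values were 3871 and 3802 in parental and 2694 and 2461 in shCTL libraries, a change of -0.58 ± 0.067 (adjusted p = 0.000322). Its MDA231 values were 4283 and 4459.9 against 2741 and 2864, a change of -0.64 ± 0.074 (adjusted p = 0.000718). The groups did not overlap, and the difference between the lines was 0.07 ± 0.10 (adjusted p = 0.611). ETV4, its close relative, did not pass the test in either line. PC9 ETV4 lay at 3903 and 4064 against 4201 and 4086 (0.06 ± 0.13, adjusted p = 0.749). MDA231 ETV4 lay at 1559.9 and 929.5 in parental and 2034 and 1739 in shCTL libraries (0.64 ± 0.24, adjusted p = 0.0586), and its parental libraries were the least alike of any MDA231 pair for these genes. That MDA231 change was 0.09 with the GC trend removed.

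**Figure D2:**
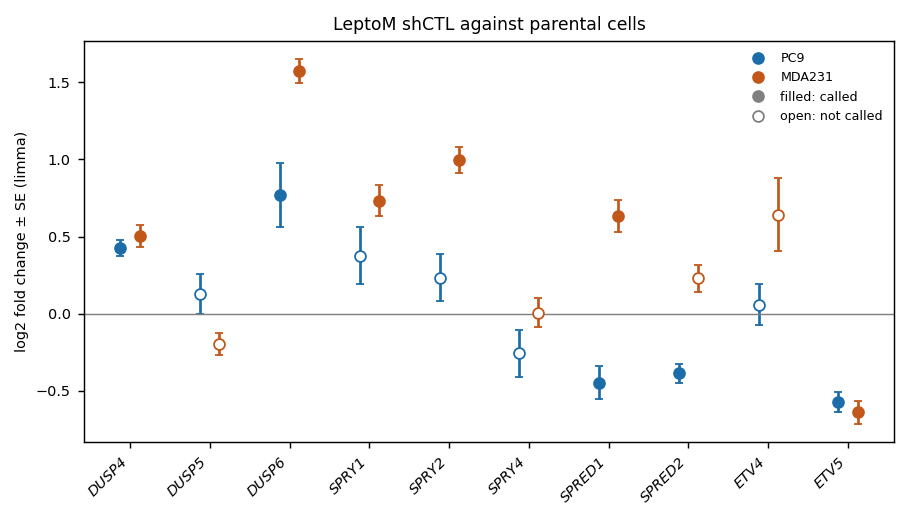
Change between LeptoM shCTL and parental cells (y axis, log2 fold change with its SE as bars) for each gene, PC9 in blue and MDA231 in orange, filled where the adjusted p was under 0.05. DUSP4 and DUSP6 lie above 0 and ETV5 below 0 in both lines, while SPRED1 lies at -0.45 in PC9 and 0.63 in MDA231.

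DUSP6 and ETV5, both used as readouts of ERK output, therefore moved apart. The ratio of DUSP6 to ETV5 per kilobase was compared within each library, which removes the size factor. On the log2 scale it was -0.83 and -0.82 in PC9 parental libraries and 0.45 and 0.59 with shCTL. In MDA231 it was 0.21 and 0.32 in parental libraries and 2.49 and 2.48 with shCTL. All 4 LeptoM shCTL libraries thus had more DUSP6 than ETV5 per kilobase, and the PC9 parental libraries had less. Both shLCN2_2 libraries stayed near shCTL, at 0.53 and 0.51 in PC9 and 2.62 and 2.61 in MDA231. PC9 shLCN2_1 libraries lay between the other PC9 groups, at -0.63 and 0.18. MDA231 shLCN2_1 libraries lay at 2.64 and 2.70. The ratio is a description here and was not tested.

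**Figure D3:**
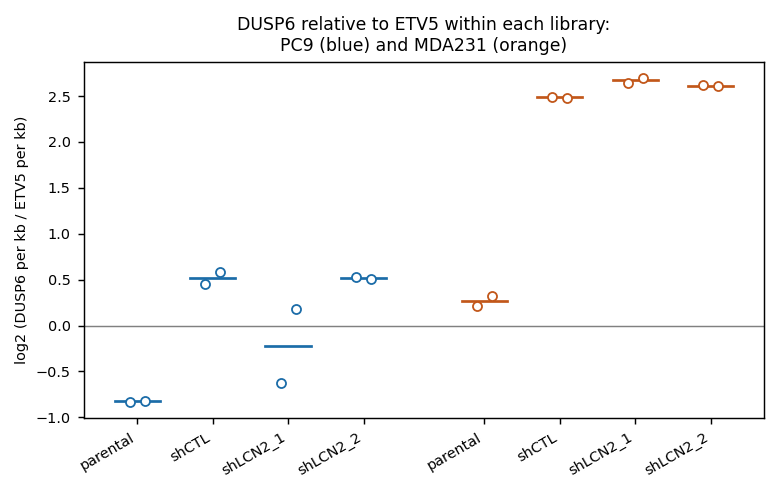
Log2 ratio of DUSP6 to ETV5, each per kilobase of transcript (y axis), in each library (points) with the group mean (bars), PC9 in blue and MDA231 in orange. Parental libraries lie lowest in each line, at -0.83 and -0.82 in PC9 and 0.21 and 0.32 in MDA231.

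The lines differed in 4 of the 10 genes for shCTL against parental, where 46% of 13392 genes tested in both lines differed, 21.7% higher and 24.3% lower in PC9. All 4 were lower in PC9 relative to MDA231. The difference of changes, PC9 minus MDA231, was -0.81 ± 0.22 for DUSP6 (adjusted p = 0.0128), -0.76 ± 0.17 for SPRY2 (adjusted p = 0.00309), -1.08 ± 0.15 for SPRED1 (adjusted p = 3.85e-05) and -0.62 ± 0.11 for SPRED2 (adjusted p = 0.000483). Thus DUSP6 rose in both lines, but more in MDA231. For SPRY1 the difference was -0.36 ± 0.21 (adjusted p = 0.186), so its call in MDA231 alone does not show a difference between the lines. The DUSP6 difference passed the threshold no longer without PC9 parental replicate 1 or 2 or PC9 shCTL replicate 1 or 2, with an adjusted p of up to 0.0575.

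With the LCN2 hairpins, PC9 changes were few and mostly small. DUSP4 was lower than with shCTL for both hairpins, and ETV5 was higher with shLCN2_1 and lower with shLCN2_2. In PC9, 3 of 10 genes were called with shLCN2_1, 1 higher and 2 lower, where 44.2% of tested genes were called, 18.8% higher and 25.3% lower. With shLCN2_2, 3 of 10 were called, all lower, where 19.5% of tested genes were called, 9.81% higher and 9.7% lower. In MDA231 no gene of the 10 was called with either hairpin, where 0.841% of tested genes were called with shLCN2_1, 0.389% higher, and 0.521% with shLCN2_2, 0.139% higher. Libraries did not overlap with shCTL for 5 of 10 genes with shLCN2_1 and 8 of 10 with shLCN2_2 in PC9 (71.8% and 75.1% of tested genes), and for 8 of 10 with each hairpin in MDA231 (56.9% and 62%). At an unadjusted p under 0.05 there were 3 of 10 for each MDA231 hairpin, against 2010 (shLCN2_1) and 2013 (shLCN2_2) of 14387 tested genes. With edgeR the MDA231 counts were 0 and 1, and with DESeq2 1 and 1.

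PC9 DUSP4 lay at 13319.9 and 13141 with shCTL, 11296 and 10903 with shLCN2_1 and 10982 and 11228 with shLCN2_2. Both hairpin groups lay between parental and shCTL libraries and overlapped each other. The change was -0.25 ± 0.054 for each hairpin, with an adjusted p of 0.00591 for shLCN2_1 and 0.0157 for shLCN2_2. Without shCTL replicate 1 the shLCN2_1 call was lost, and the shLCN2_2 call was lost without any 1 of the shCTL or shLCN2_2 libraries. In MDA231, DUSP4 lay at 14029 and 14306 with shCTL, 16593 and 17222 with shLCN2_1 and 13964 and 13028 with shLCN2_2. Its MDA231 changes were 0.25 ± 0.072 (adjusted p = 0.19) and -0.07 ± 0.072 (adjusted p = 0.623).

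PC9 DUSP6 lay at 2936 and 2951 with shCTL, 1874 and 3264 with shLCN2_1 and 2476 and 2362 with shLCN2_2. The shLCN2_1 libraries lay on either side of the control, and the shLCN2_2 libraries below it. Neither change passed the test, at -0.25 ± 0.21 (adjusted p = 0.358) and -0.28 ± 0.21 (adjusted p = 0.378). Fitted to its 2 groups alone, the shLCN2_2 change had an adjusted p of 2.92e-05. MDA231 DUSP6 lay at 12282 and 12765 with shCTL, 16176 and 16232 with shLCN2_1 and 11472 and 11804 with shLCN2_2. These groups did not overlap, and the changes were 0.37 ± 0.079 (adjusted p = 0.103) and -0.11 ± 0.079 (adjusted p = 0.521).

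DUSP5 showed its highest MDA231 values with shLCN2_2. They were 4238 and 4370.2, against 3115 and 3138 with shCTL and 3390.3 and 3489.9 with shLCN2_1. The shLCN2_2 change was 0.46 ± 0.070, and its adjusted p of 0.0527 was just past the threshold. It was under the threshold in 8 of the 19 alternative settings. In PC9, DUSP5 lay at 1865 and 1776 with shCTL, 2149 and 1674 with shLCN2_1 and 1637 and 1476 with shLCN2_2, with changes of 0.06 ± 0.13 (adjusted p = 0.734) and -0.23 ± 0.13 (adjusted p = 0.247).

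ETV5 in PC9 lay at 2694 and 2461 with shCTL, 3626 and 3605 with shLCN2_1 and 2147 and 2083 with shLCN2_2. The 3 groups did not overlap, with shLCN2_1 the highest and near the parental level. The change was 0.49 ± 0.067 with shLCN2_1 (adjusted p = 0.00071) and -0.28 ± 0.067 with shLCN2_2 (adjusted p = 0.0226). In MDA231 the order of the groups was the same, at 2741 and 2864 with shCTL, 3242 and 3134 with shLCN2_1 and 2339.8 and 2421 with shLCN2_2. Those changes were 0.19 ± 0.074 (adjusted p = 0.333) and -0.24 ± 0.074 (adjusted p = 0.256).

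PC9 ETV4 lay at 4201 and 4086 with shCTL, 3198 and 2299.6 with shLCN2_1 and 4279 and 4129.7 with shLCN2_2. Its shLCN2_1 change was -0.61 ± 0.13 (adjusted p = 0.00658). The ETV4 transcript has a GC content of 60.8%, and with the GC trend removed the change turned to 0.27 (adjusted p = 0.143). With shLCN2_2 the change was 0.02 ± 0.13 (adjusted p = 0.93). In MDA231, ETV4 lay at 2034 and 1739 with shCTL, 2471 and 2906 with shLCN2_1 and 2430.3 and 2074 with shLCN2_2, and the changes were 0.51 ± 0.24 (adjusted p = 0.401) and 0.26 ± 0.24 (adjusted p = 0.593).

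SPRED1 in PC9 lay at 2011 and 2044 with shCTL, 1738 and 2200.5 with shLCN2_1 and 1559 and 1495 with shLCN2_2. The shLCN2_2 libraries were the lowest, and the change was -0.41 ± 0.11 (adjusted p = 0.0326). With shLCN2_1 it was -0.05 ± 0.11 (adjusted p = 0.722). SPRED2 lay at 3022 and 3029 with shCTL, 2674 and 2807 with shLCN2_1 and 2952 and 2992 with shLCN2_2, and neither change passed the test (-0.14 ± 0.060, adjusted p = 0.0853, and -0.03 ± 0.060, adjusted p = 0.796). MDA231 SPRED1 spanned 5837 to 6381 with shCTL, 6791 to 7656 with shLCN2_1 and 5764 to 6368 with shLCN2_2, and SPRED2 stayed between 2272 and 2439 in all LeptoM libraries.

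No sprouty gene was called with a hairpin in either line. PC9 SPRY1 lay at 449 and 304 with shLCN2_1 and 354 and 303 with shLCN2_2, overlapping shCTL. PC9 SPRY2 lay at 465 and 361 with shLCN2_1 and 359 and 396 with shLCN2_2, above shCTL. PC9 SPRY4 lay at 1322 and 1925 with shLCN2_1, on either side of shCTL, and at 2038 and 2089.5 with shLCN2_2. In MDA231 the lowest LeptoM SPRY1 values were those with shLCN2_2, at 655 and 724 against 913 and 910.3 with shCTL (-0.40 ± 0.10, adjusted p = 0.171). MDA231 SPRY2 stayed between 2449.9 and 2782 and SPRY4 between 3345 and 3723 in all LeptoM libraries.

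How many PC9 genes were called depended on single libraries. Leaving out shLCN2_1 replicate 2 raised the number called for shLCN2_1 against shCTL, but the share of all genes called in that fit is not given here. Of the 3 called with shLCN2_2, none was called without shCTL replicate 1, shCTL replicate 2, shLCN2_2 replicate 1 or shLCN2_2 replicate 2. For shCTL against parental, fewer were called without parental replicate 1, shCTL replicate 1 or shCTL replicate 2, again without the share of all genes in those fits. For shLCN2_1 in PC9 the share of called genes that were higher was 42.6% over all genes, and 56.0% with upper-quartile scaling. That scaling moved the median of all genes in that comparison from 0.03 to 0.13.

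**Figure D4:**
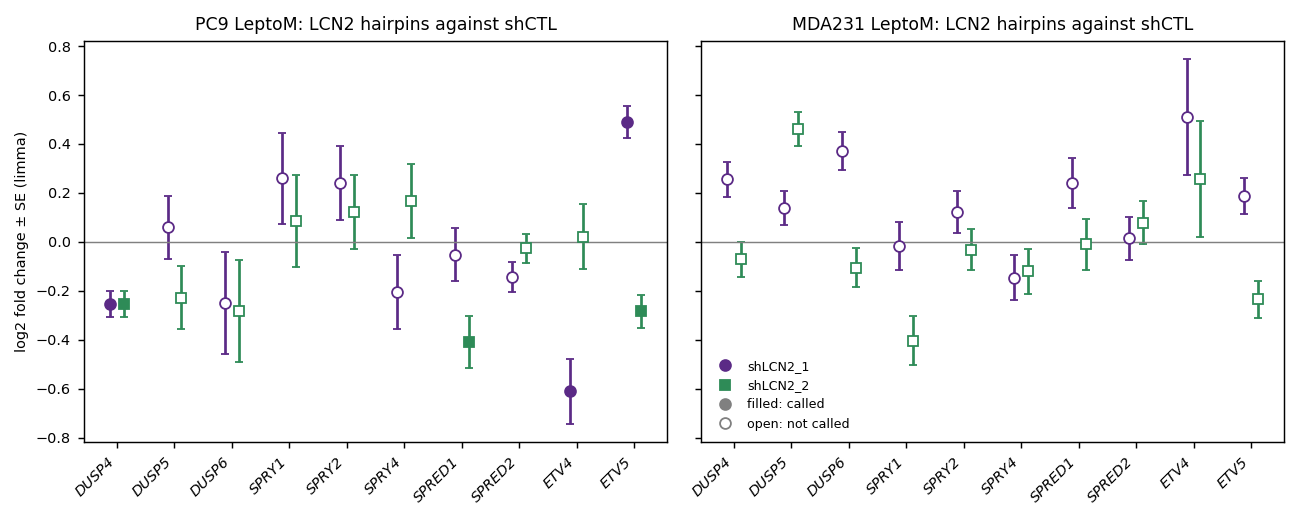
Change of each gene with shLCN2_1 (purple circles) and shLCN2_2 (green squares) against shCTL (y axis, log2 fold change with its SE as bars) in PC9 LeptoM cells on the left and MDA231 LeptoM cells on the right, filled where the adjusted p was under 0.05. DUSP4 lies at -0.25 with both hairpins in PC9, ETV5 in PC9 lies at 0.49 and -0.28, and all MDA231 symbols are open.

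The hairpins were also compared with each other. In PC9, 3 of 10 genes were called, 2 higher and 1 lower with shLCN2_1, where 54.5% of tested genes were called, 25.6% higher and 28.9% lower. Libraries did not overlap for 6 of 10 genes, where 76.3% of tested genes did not. ETV5 was higher with shLCN2_1 by 0.77 ± 0.067 (adjusted p = 7.08e-05), and SPRED1 by 0.36 ± 0.11 (adjusted p = 0.0219). ETV4 was lower by 0.63 on the log2 scale (-0.63 ± 0.13, adjusted p = 0.00425). Once the GC trend was removed, SPRED1 differed by 0.05 (adjusted p = 0.738) and ETV4 turned to 0.38 (adjusted p = 0.0464), while ETV5 kept 0.66 (adjusted p = 0.000429). DUSP6 differed by 0.03 ± 0.21 (adjusted p = 0.906). Without shLCN2_1 replicate 2 the DUSP6 difference turned to -0.37, and without shLCN2_1 replicate 1 it was 0.43, each with 1 library left in that group.

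In MDA231, DUSP6 and ETV5 were both higher with shLCN2_1 than with shLCN2_2, and they were 2 of 10 where 2.69% of tested genes were called, 1.52% higher and 1.17% lower. The differences were 0.48 ± 0.079 for DUSP6 (adjusted p = 0.0296) and 0.42 ± 0.074 for ETV5 (adjusted p = 0.0373). The libraries of the hairpins did not overlap for any of the 10 genes, where 51.6% of tested genes did not overlap. Both calls were lost without any 1 of the 6 LeptoM libraries and in the fit with the replicate number as a block. Without parental replicate 1 or 2, which these comparisons do not use, more of the 10 were called, but the share of all genes called in those fits is not given here.

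Between the lines, 4 of 10 genes differed in their change with shLCN2_1, 1 higher and 3 lower in PC9, where 37.6% of genes did, 15.7% higher and 21.9% lower. With shLCN2_2 it was 1 of 10, lower in PC9, where 5.87% of genes differed, 3.97% higher and 1.9% lower. For shLCN2_1 the difference PC9 minus MDA231 was -0.51 ± 0.090 for DUSP4 (adjusted p = 0.0047), -0.62 ± 0.22 for DUSP6 (adjusted p = 0.0488), -1.12 ± 0.27 for ETV4 (adjusted p = 0.0115) and 0.30 ± 0.10 for ETV5 (adjusted p = 0.0296). DUSP4 fell in PC9 and was at 0.25 in MDA231. The ETV4 difference was 0.08 with the GC trend removed (adjusted p = 0.754). For shLCN2_2 the difference was -0.69 ± 0.15 for DUSP5 (adjusted p = 0.0163), from -0.23 in PC9 and 0.46 in MDA231. That difference was lost without any 1 of the 8 libraries compared. Fewer of the 10 differed for shLCN2_1 without any 1 of the MDA231 LeptoM libraries or without PC9 shCTL replicate 2. More differed without PC9 shLCN2_1 replicate 2. The share of all genes that differed in those fits is not given here, so this shows only that the count moved with single libraries.

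Other genes of the pathway were counted in 3 lists, the core of the cascade (20 genes), other negative regulators of RAS and ERK (20 genes, of which 18 were tested in PC9 and 16 in MDA231) and other ERK output genes (30 genes, of which 28 and 27 were tested). For PC9 shCTL against parental, 3 core genes were higher and 7 lower, where 23.8% of all tested genes were higher and 21.8% lower. KSR1, a scaffold of the cascade, fell by 1.26 (log2), and the adaptor SHC1 fell by 0.75, while RRAS rose by 0.65. Among other negative regulators 5 were higher and 2 lower, with TOB1 up 1.24 and RASA1, a GTPase-activating protein for RAS, up 0.65. DUSP2 was at -0.77 and CBL at -0.43. Among output genes 6 were higher and 7 lower, with the transcription factors JUNB and EGR1 up 1.29 and 0.92. ETS1, another transcription factor, was at -1.5, and PLAUR, the urokinase receptor, at -0.74. Medians were -0.18, 0.17 and 0.01, against 0.01 over all genes. Removing the GC trend gave 2 higher and 11 lower for the core, 5 and 4 for negative regulators and 6 and 9 for output genes, with medians of -0.23, 0.06 and -0.01. For list counts with the GC trend removed or without a library, here and below, the share of all genes called is not given. They show only how far the counts moved. The list of negative regulators had 3 called genes without parental replicate 1 or shCTL replicate 2, 2 without shCTL replicate 1 and 4 without either shLCN2_2 library.

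In MDA231 the same comparison had 8 core genes higher and 1 lower, where 24.8% of all tested genes were higher and 23.8% lower. KSR1 rose by 1.25 and MAPK3, which encodes ERK1, by 1.03. Among negative regulators 6 were higher and 1 lower, with RASA1 up 1.21, ERRFI1, an inhibitor of EGFR, up 0.97 and PEBP1 at -0.27. Among output genes 8 were higher and 7 lower, with the growth factor EREG up 3.17 and the receptor EPHA2 up 1.20. PLAUR was at -1.32 and MMP1 at -0.83. Medians were 0.18, 0.30 and 0.26, against 0.04 over all genes. Removing the GC trend gave 14 higher and 4 lower for the core, 6 and 4 for negative regulators and 7 and 9 for output genes. The shares of all genes above belong to the main fit, and those with the GC trend removed are not given here. The medians were then 0.25, 0.01 and -0.07, so that of the output genes changed sign. Without parental replicate 2 the medians of negative regulators and output genes were 0.02 and 0.12. Without shCTL replicate 1 or 2, the core had 5 higher and 1 lower, negative regulators had 3 higher and 0 lower, and output genes had 3 and 3 or 4 and 5.

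With shLCN2_1 in PC9, 1 of 28 output genes was higher and 18 lower than with shCTL, with a median of -0.53 against 0.03 over all genes, of which 18.8% were higher and 25.3% lower. JUNB was at -2.22, the secreted peptide precursor VGF at -1.72 and the ETS factor ETV1 at 0.79. In the core 10 were higher and 8 lower, with RRAS at -1.45 and HRAS at -1.22. Rises of core genes chosen by the rule for named genes were 0.54 and 0.45. Among negative regulators 7 were higher and 7 lower, with the repressor CIC at -1.85, LZTR1 at -1.36, DUSP10 at 0.58 and NF1 at 0.46. After removal of the GC trend, output genes had 3 higher and 8 lower with a median of -0.21, the core 6 and 1, and negative regulators 3 and 3, without the share of all genes in that fit. JUNB was then at -0.90 (adjusted p = 0.00729), CIC at -0.43 (adjusted p = 0.0023), VGF at 0.17 (adjusted p = 0.441) and HRAS at 0.19 (adjusted p = 0.275). Without shCTL replicate 1 or 2, the core had 4 higher and 7 lower, and negative regulators 1 and 4 or 3 and 5. Output genes had 1 and 12 without shCTL replicate 1, 0 and 14 without shCTL replicate 2, and 5 and 18 without shLCN2_1 replicate 1. Of the 10 feedback genes, DUSP5, SPRY1, SPRY2 and ETV5 had changes above 0 in this comparison and the other 6 below 0.

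With shLCN2_2 in PC9, 9.81% of all tested genes were higher and 9.7% lower. In the lists, 4 core genes were higher and 2 lower, 1 negative regulator was higher, and 2 output genes were higher and 2 lower. Medians were 0.07, 0.17 and -0.13, against -0.002 over all genes. DUSP10, a phosphatase for the JNK and p38 kinases, rose by 1.00, and the cytokine LIF fell by 0.59. CCND1, which encodes cyclin D1, rose by 0.40. Removing the GC trend gave counts of 5 and 3, 4 and 0, and 2 and 5. No core gene or negative regulator was called without either shCTL or either shLCN2_2 library, and at most 1 output gene was. Without either shLCN2_1 library, 7 or 8 negative regulators and 9 output genes were called, and without parental replicate 1, 2 negative regulators were. Between the hairpins in PC9, 25.6% of all tested genes were higher and 28.9% lower with shLCN2_1, and JUNB was at -2.80. List medians were 0.10, -0.37 and -0.42, against 0.02 over all genes. List counts were 6 core genes higher and 7 lower, 3 negative regulators higher and 8 lower, and 1 output gene higher and 14 lower. Those counts were 6 and 4, 3 and 7, and 5 and 9 with the GC trend removed, and without shLCN2_2 replicate 2 the negative regulators had 1 and 6. In MDA231 the hairpins gave 1 called gene in all 3 lists each, where 0.841% (shLCN2_1) and 0.521% (shLCN2_2) of tested genes were called. The growth factor EREG was lower with shLCN2_1 (-1.05, adjusted p = 0.0461), and DUSP16 was lower with shLCN2_2 (-0.80, adjusted p = 0.045), and neither was called without any 1 of the 6 LeptoM libraries or with the replicate number as a block. Without parental replicate 1 or 2, 4 or 3 output genes were lower with shLCN2_1 and 2 with shLCN2_2. With the GC trend removed, shLCN2_1 had 1 core gene higher, 1 negative regulator higher and 2 lower, and 2 output genes higher and 5 lower. With shLCN2_2 it was then 2 core genes lower, 2 negative regulators lower, and 2 output genes higher and 3 lower. Between the MDA231 hairpins, EREG at -1.30 and HBEGF at -0.62 were lower with shLCN2_1, and DUSP16 at 0.89 (adjusted p = 0.0146) was higher. Over all genes tested in MDA231, 2.69% were called between the hairpins. No gene of the 3 lists was called between them without any 1 of the 6 LeptoM libraries, and without either parental library 2 output genes were higher and 4 lower. After removal of the GC trend, 7 output genes were higher and 6 lower. List counts with that trend removed or without a library stand here, too, without the share of all genes called in those fits.

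Over the 8 MDA231 libraries the Pearson correlation with DUSP6 was 0.98 for SPRY2, 0.98 for SPRED1, 0.97 for DUSP4, 0.90 for SPRY1, 0.83 for ETV4 and 0.81 for SPRED2. It was -0.10 for DUSP5, -0.50 for SPRY4 and -0.75 for ETV5. Over the 6 MDA231 LeptoM libraries alone, ETV5 turned to 0.93 and SPRED2 to -0.48, while DUSP4, SPRY2, SPRED1, SPRY1 and ETV4 were between 0.61 and 0.96. In PC9 the correlation was 0.71 for DUSP4 and between -0.62 and 0.21 for the others. Over the 6 PC9 LeptoM libraries it was 0.36 for DUSP4, and it turned from 0.21 to -0.82 for SPRY1, from 0.17 to -0.89 for SPRY2, from -0.35 to 0.71 for SPRED1, from -0.62 to 0.52 for SPRED2 and from -0.05 to 0.60 for SPRY4. PC9 DUSP6 lay at 1874 and 3264 in the shLCN2_1 pair and between 2362 and 2951 in the shCTL and shLCN2_2 libraries. In those shCTL and shLCN2_2 libraries SPRY4 was higher where DUSP6 was lower, unlike its 0.60 over all 6 LeptoM libraries. The libraries of a line share their groups and depth, so these correlations describe the samples and carry no test. Of 11582 genes ranked, those most like DUSP6 in both lines, by the smaller of the 2 correlations, were ADAMTS9, a secreted metalloprotease (0.98 in PC9 and 0.95 in MDA231), CPM, a membrane carboxypeptidase (0.94 and 0.98), RP11-783K16.5 (0.94 and 0.97), RP11-513I15.6 (0.93 and 0.96) and AHCYL2 (0.94 and 0.92).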

How the data were processed

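RNA-seq libraries were stranded and made from polyadenylated RNA, per the labels' protocols. The submitters' processing notes name HTSeq 0.5.3, DESeq2 1.22.1 and hg19; the sources used here give no aligner, annotation or strand setting. The deposited values are a signal, gene reads divided by a size factor; 100% of them were whole reads within 0.001. Lines that name no gene, 4 in PC9, with 24.4 to 36.5% of reads, were left out.

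The members and lists were chosen with earlier results of these data known. All 10 genes are reported, and from each list genes among the called ones with the 2 highest and 2 lowest changes, a group mean of 50 or more and libraries that did not overlap. The 5 genes most like DUSP6 were taken from genes outside the lists. Genes with a mean of at least 10 were tested on log2(value + 1) with limma 3.58.1 (R 4.3.3) over 4 groups per line, with 4 residual degrees of freedom, two-sided and Benjamini-Hochberg adjusted over all genes, and called under 0.05. Line differences used both effects and their SEs. Replicates differed beyond sampling noise (chi-square per degree of freedom 3.09 to 43.5). The test was checked on simulated counts. Alternatives were another pseudocount (5), minimum mean (none or 50), scaling (upper quartile, TMM), edgeR 4.0.16, DESeq2 1.42.0, the 2 compared groups only, leaving out each library, a replicate block, removal of the GC trend and thinning to equal depth. List counts with the GC trend removed and without each library were added after seeing the data. Lengths and GC content came from GENCODE transcripts of another build. Floors cover counting error only, as PCR copies are no separate molecules. One gene of the cascade core is not reported here by name.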

Additional observations from a re-analysis of the deposited data

Results flagged for a closer look

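The change of 8 genes differed between the lines in at least 1 comparison, by a test of the difference itself. For shCTL against parental, 4 of 10 genes differed, where 46% of 13392 genes did. With shLCN2_1 it was 4 of 10, where 37.6% did, and with shLCN2_2 1 of 10, where 5.87% did. Differences are given as PC9 minus MDA231 on the log2 scale. Between shCTL and parental cells the differences were -0.81 for DUSP6, -0.76 for SPRY2, -1.08 for SPRED1 and -0.62 for SPRED2. The differences for SPRY2, SPRED1 and SPRED2 passed the threshold in all 27 alternative settings, including those without each library. With shLCN2_1 they were -0.51 for DUSP4, -0.62 for DUSP6, -1.12 for ETV4 and 0.30 for ETV5. DUSP6 there passed in 8 of 27 settings, and ETV5 in 17 of 27. With shLCN2_2 the difference was -0.69 for DUSP5, which passed in 19 of 27.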

How the results depend on the processing

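Each of the 10 genes had at least 187 reads in every library, and each group had 2 libraries. Of changes called under the reported or the alternative setting, 4 reversed. With the GC trend removed, PC9 ETV4 went to 0.27 (shLCN2_1 against shCTL) and 0.38 (shLCN2_1 against shLCN2_2), and its line difference to 0.079. Without shLCN2_1 replicate 2, PC9 DUSP6 went from 0.03 to -0.37 between the hairpins, and without replicate 1 to 0.43. The cause was not tested. The 6 genes called in MDA231 for shCTL against parental were called in all 19 alternative settings.

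Of the 10 genes, leaving out 1 library each gave 3 to 7 called in PC9 for shCTL against parental, 2 to 9 for shLCN2_1, 0 to 4 for shLCN2_2 and 2 to 7 between the hairpins. In MDA231 it gave 6 to 8, 0 to 1, 0 to 1 and 0 to 5, and for the line differences 3 to 5, 0 to 7 and 0 to 1. Those counts without single libraries stand without the share of all genes called in the same fits, so they show only how far the counts moved. The counts under other settings in the rest of this paragraph stand without that share too, and are to be read in the same way. Fitted to the 2 compared groups alone, PC9 shLCN2_2 had 6 called and the shLCN2_2 line difference 4. MDA231 shLCN2_1, shLCN2_2 and the hairpin comparison then had 1 each. With the GC trend removed, MDA231 shLCN2_1 had 3, shLCN2_2 had 2, the hairpin comparison 6 and the shLCN2_2 line difference 2. With DESeq2 the 3 MDA231 counts were 1, 1 and 4. For MDA231 shLCN2_2, 1 gene was called with a pseudocount of 5, a minimum mean of 50, TMM scaling or edgeR. Thinned to equal depth, the MDA231 hairpin comparison had 1 and the shLCN2_1 line difference 2.

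Over all genes, edgeR called 297 and 188 genes for the MDA231 hairpins against shCTL, DESeq2 488 and 350, and limma 121 and 75. Between the MDA231 hairpins they called 687, 819 and 387. Replicate numbers carry no stated pairing. Correlations of replicate differences between groups were -0.02 to 0.08 in PC9 and -0.59 to 0.45 in MDA231. With the replicate number as a block, 0 of 10 genes were called between the MDA231 hairpins, and 47, 1 and 178 over all genes for shLCN2_1, shLCN2_2 and the hairpin comparison.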
